A study of Arabidopsis thaliana with 6 samples.

Results

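The CSLC genes of Arabidopsis thaliana encode the synthases of the xyloglucan backbone, and their transcripts were followed 30 min after seedlings met chitooctaose, a soluble fragment of the chitin of fungal cell walls. The family has 5 members, CSLC04 (AT3G28180), CSLC05 (AT4G31590), CSLC06 (AT3G07330), CSLC08 (AT2G24630) and CSLC12 (AT4G07960). They were taken by locus from the probe sets, groups of short probes that read a transcript, to which the platform annotation gives exactly 1 gene. All 5 were found, out of 13286 genes with such a probe set. The rule takes the probe set with the highest mean over the 6 arrays, but each gene had only 1, so that value decided nothing. The members were thus selected on family membership, but the family was put forward with the rise of CSLC04 on these arrays already known. The test of CSLC04 below is therefore a description and no independent support. The annotation and gene table spell 3 of the names CSLC5, CSLC6 and ATCSLC08.

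Xyloglucan is the main hemicellulose of the growing primary wall in plants such as Arabidopsis. CSLC proteins sit in the Golgi membrane and join glucose from UDP-glucose into a straight glucan chain, xylosyltransferases of the XXT family add side chains to it, and the finished polymer is secreted and binds to cellulose. XTH enzymes then cut and rejoin it in the wall. CSLC04 was the first CSLC protein shown to make this glucan and is regarded as the main synthase of vegetative tissue, and mutants that lack all CSLC genes have no detectable xyloglucan. Plants sense chitin fragments through receptor kinases with LysM domains, which set off an early transcriptional response.

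Each array was hybridised with RNA of whole seedlings of the Col 0 ecotype, grown for 14 days in 10 ml of shaken liquid medium with 2% dextrose under constant light at 23 °C. About 30 seeds were sown per tube, so an array reads a pool of seedlings and of all their organs. The 3 water arrays came from tubes given 20 µl of water, and the 3 chitooctaose arrays from tubes given 20 µl of a 0.5 mM stock, for a final 1 µM. Both groups were collected after 30 min according to titles and protocols, while the series text has 3 min, and 1 further label of the chitooctaose arrays calls their treatment water. The series text calls the replicates biological.

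Values are the authors' deposited intensities, on a linear scale, with array medians between 155.7 and 169.2. An intensity depends on the probes as well as on the transcript, so levels are compared between arrays for a given gene and not between genes. Fewer cells expressing a gene and less transcript per cell cannot be told apart in whole seedlings. Of 6 shoot markers 3 were on a probe set with 1 gene, LHCB4.1, LHCB4.2 and LHCB4.3, which encode proteins of the light-harvesting antenna. The intensity of LHCB4.1 averaged 9325 ± 132 on water arrays and 9000 ± 591 on chitooctaose arrays (SD, n = 3), and none of the 3 passed the test, with log2 changes from -0.08 to 0.20. The 6 root and 4 seed markers listed were not analysed here, as none was on such a probe set.

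CSLC04 was the only CSLC gene that passed the test, and it rose 1.83-fold. Its intensity was 1164, 1420 and 1270 on the water arrays of replicates 1 to 3, and 2393, 2209 and 2452 on the chitooctaose arrays. The lowest chitooctaose array lay well above the highest water array. The means were 1285 ± 128 in water and 2352 ± 127 in chitooctaose (SD, n = 3), so the spread within either group was small beside the distance between them. The log2 change was 0.88 (SE 0.09, 95% interval for this gene alone 0.67 to 1.09), with an adjusted p of 0.00263 in limma, a linear model fitted to all 22746 probe sets, with Benjamini-Hochberg adjustment over all of them. A gene is called changed where the adjusted p is under 0.05.

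In that fit 4.24% of all probe sets were called higher, 0.805% lower and 5.04% in either direction, and 1 of 5 CSLC genes was higher and none lower. The median log2 change was 0.07 over the 5 genes and -0.04 over all probe sets tested. CSLC04 changed less than most of the probe sets that rose. Their median log2 change was 1.35, and CSLC04 ranked 697 of 964 by size. Over all probe sets, 3.42% had a larger log2 change. No CSLC value lay under 16, the floor to which lower intensities were raised before log2 was taken.

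**Figure D1:**
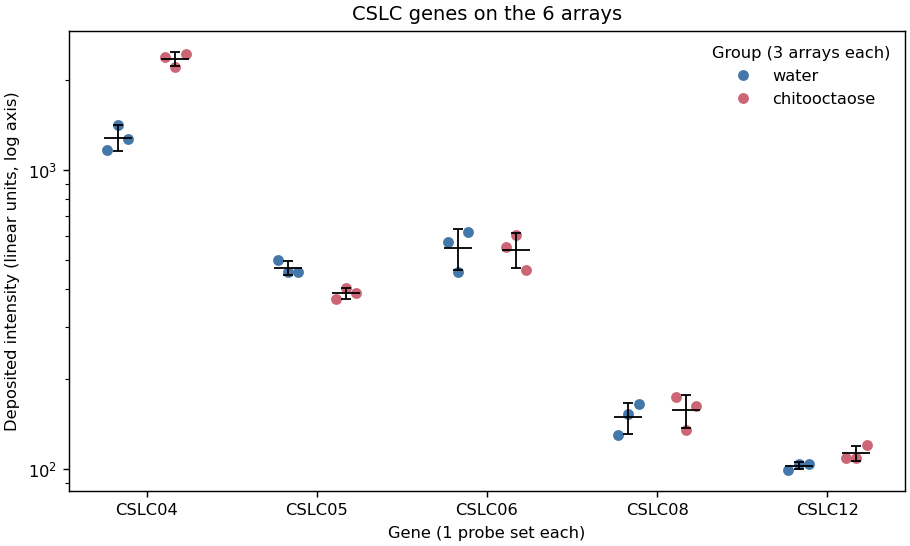
Deposited intensity (log axis) of the 5 CSLC genes on each of the 3 water (blue) and 3 chitooctaose (red) arrays, with black bars for the mean and SD of a group. The CSLC04 points rise from 1164 to 1420 in water to 2209 to 2452 in chitooctaose, the CSLC05 points lie slightly lower in chitooctaose, and the groups of CSLC06 and CSLC08 overlap.

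CSLC05, which also encodes a xyloglucan glucan synthase, was lower on every chitooctaose array but did not pass the test. Its intensity was 499, 457 and 458 on the water arrays and 371, 404 and 387 on the chitooctaose arrays. The groups did not overlap. The means were 471 ± 24.2 and 388 ± 16.4 (SD, n = 3), a chitooctaose to water ratio of 0.823 (95% interval 0.739 to 0.916). The log2 change was -0.28 (SE 0.06), the limma p before adjustment was 0.00467 and the adjusted p was 0.0790. Water and chitooctaose did not overlap for 19.2% of all probe sets, 8.96% higher and 10.2% lower in chitooctaose, and for 3 of the 5 CSLC genes.

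CSLC12 was the third gene without overlap, with a small difference in the opposite direction. Its intensity was 99.6, 105 and 104 in water and 109, 109 and 121 in chitooctaose. The groups were separate by a narrow margin. The means were 103 ± 2.85 and 113 ± 6.82 (SD, n = 3), the log2 change was 0.14 (SE 0.10, 95% interval -0.12 to 0.39) and the adjusted p in limma was 0.671.

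CSLC06 and CSLC08 had overlapping groups. CSLC06 stood at 577, 455 and 621 in water and at 553, 609 and 464 in chitooctaose. It had 1 low array in each group, water replicate 2 and chitooctaose replicate 3, and the widest relative spread of the family in both groups, with an SD of 15.6% of the mean in water and 13.5% in chitooctaose. The log2 change of CSLC06 was -0.02 (95% interval -0.40 to 0.36, adjusted p 0.986). CSLC08 stood at 130, 153 and 165 in water and at 174, 135 and 163 in chitooctaose, with the lowest value of all in water replicate 1. The log2 change of CSLC08 was 0.07 (95% interval -0.29 to 0.44, adjusted p 0.895). These limma intervals include rises up to 1.28-fold for CSLC06 and 1.35-fold for CSLC08. The rise of CSLC04 was 1.83-fold (95% interval for this gene alone 1.59 to 2.12). Setting intervals side by side is no test of a difference between genes, which is taken up with the ratios below.

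The sign of both differences hung on single arrays. Leaving out water replicate 1 turned the log2 change of CSLC06 to 0.02, leaving out water replicate 3 to 0.073 and leaving out chitooctaose replicate 3 to 0.088. For CSLC08 it was -0.022 when water replicate 1 was left out and -0.0017 when chitooctaose replicate 1 was. CSLC04, CSLC05 and CSLC12 kept their direction when any 1 of the 6 arrays was left out, as the plot of the settings shows.

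**Figure D2:**
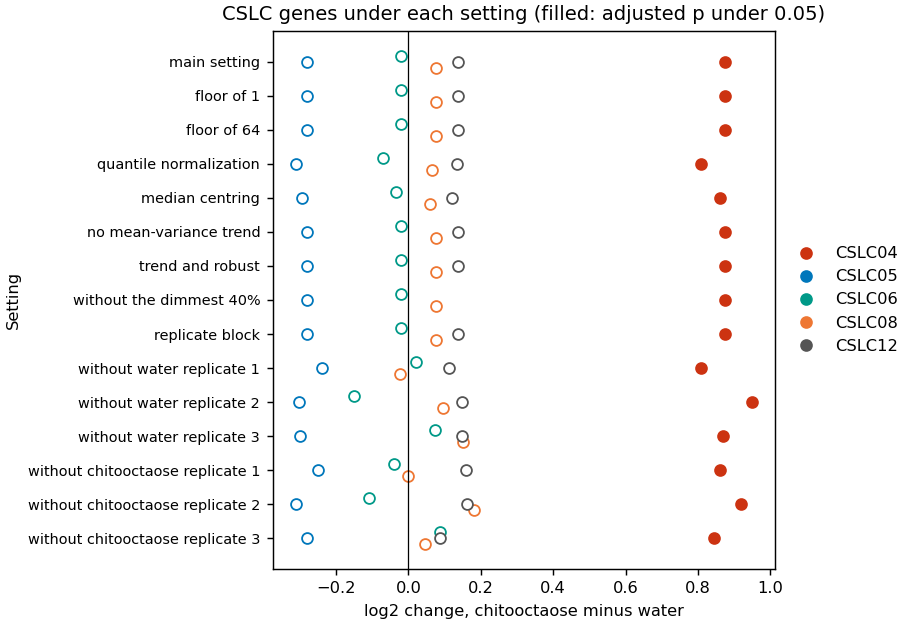
Log2 change, chitooctaose minus water, of each CSLC gene (colour) under the main setting and 14 others (rows), filled where the adjusted p in limma was under 0.05. CSLC04 is filled in every row, between 0.81 and 0.95, CSLC05 stays below 0 and open, and CSLC06 and CSLC08 lie on both sides of 0. CSLC12 has no point without the dimmest 40% of probe sets, to which it belongs, and points are shifted slightly up or down where they would cover each other.

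Whether CSLC04 changed by a different amount from the other members was read from the log2 ratio of 2 genes on the same array, from which a difference in brightness of the whole array drops out. All 10 pairs were compared. The ratio of CSLC04 to CSLC05 was 1.22, 1.64 and 1.47 on the log2 scale on the water arrays and 2.69, 2.45 and 2.66 on the chitooctaose arrays. It was higher on every chitooctaose array, and the mean moved by 1.16, from 1.44 ± 0.21 to 2.60 ± 0.13 (SD, n = 3). The ratio of CSLC04 to CSLC06 moved by 0.90, to CSLC08 by 0.80 and to CSLC12 by 0.74, each without overlap between the groups.

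The exact permutation test of each of these 4 ratios gave a 2-sided p of 0.1, which is the smallest that 3 arrays against 3 allow, and 0.2 after Benjamini-Hochberg adjustment over the 10 pairs. Among the other 6 pairs, the groups were separate for CSLC05 to CSLC12 alone, whose log2 ratio fell by 0.42 (exact permutation p = 0.1, adjusted 0.2). The remaining 5 pairs moved by -0.36 to -0.06, with exact permutation p between 0.2 and 0.8. Arrays this few cannot pass the threshold in this test. The 4 ratios of CSLC04 also share the same CSLC04 values, whose rise was known when the family was put forward. They are thus not 4 separate observations, and an unequal change within the family is a description of these 6 arrays.

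**Figure D3:**
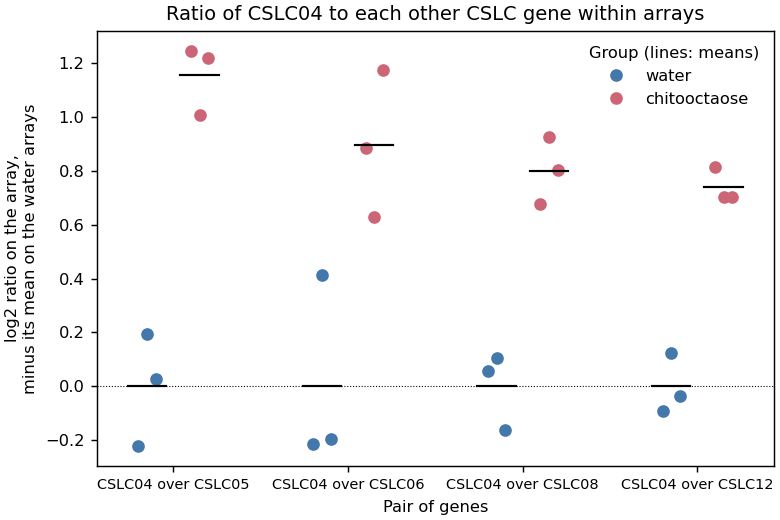
Log2 ratio of CSLC04 to each other CSLC gene on the same array, minus its mean on the water arrays, for 3 water (blue) and 3 chitooctaose (red) arrays, with black lines for group means. The chitooctaose means lie 0.74 to 1.16 above the water means, and no chitooctaose point reaches down to a water point of the same pair. All pairs share the same CSLC04 values.

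The genes whose pattern over the 6 arrays was most like that of CSLC04 were sought among 11621 other genes with a probe set of 1 gene and no array at the floor. The measure was the root mean square difference of the log2 values, each gene centred on its own mean. AT3G16530 was nearest, with a difference of 0.05 on the log2 scale, and stood at 2090, 2400 and 2200 in water and 4094, 3507 and 4203 in chitooctaose. It shares with CSLC04 the highest water value in replicate 2 and the lowest chitooctaose value in replicate 2, an order that the search itself favours. AT5G41180 and AT5G25170 followed, both with a difference of 0.07. AT5G41180 went from 119 ± 12.7 to 220 ± 22.9 and AT5G25170 from 368 ± 9.58 to 684 ± 50.2 (SD, n = 3). The log2 changes of these 3 genes were 0.82, 0.88 and 0.89, a likeness that their choice fixes.

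The protein-coding genes that flank the CSLC genes, 2 on either side of each in the TAIR10.1 gene table, included no called gene. Of these 20 genes 11 were on a probe set with 1 gene, and none was called higher or lower in limma. With 5.04% of all probe sets called in either direction, few calls or none would be usual among 11 genes. Beside CSLC04, AT3G28170 averaged 124 ± 28.3 on water arrays and 141 ± 5.37 on chitooctaose arrays (SD, n = 3, log2 change 0.21, adjusted p 0.734). AT3G28155 and AT3G28190 had mean intensities near or under the floor in both groups. Over the 11 genes the log2 changes ran from -0.36 to 0.21.

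Genes that act before, beside or after the CSLC synthases were sparsely covered, as 17 of 116 listed wall genes were on a probe set with 1 gene. Only these are called measured below. The annotation gave exactly 1 gene to 13513 of the 22746 probe sets tested and several to 503. Listed genes without such a probe set were left out, whether or not another probe set on the array reads them. Of the 17 measured genes 1 passed the test, a rise, and 16 missed it, while 5.04% of all probe sets were called in either direction. The median log2 change of the 17 was -0.05 against -0.04 over all probe sets. The list of side-chain enzymes had 1 measured gene of 12, and no XXT gene was among them. It was AXY9, which takes part in acetylating xyloglucan, with mean intensities of 380 ± 32.9 for water and 348 ± 60.1 for chitooctaose (SD, n = 3, log2 change -0.14). The 3 genes of enzymes that trim xyloglucan in the wall and 10 callose synthase genes were not analysed here.

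Of the 33 XTH genes, whose enzymes remodel the product of the CSLC synthases, 10 were measured. XTH18 rose and the other 9 did not pass, while 4.24% of all probe sets were called higher. XTH18 stood at 824, 957 and 768 in water and at 3461, 3444 and 3251 in chitooctaose, far apart. Its log2 change was 2.00 (SE 0.09, adjusted p 9.8e-05 in limma), above that of CSLC04. XTH19, its neighbour by locus number, stood at 2153 ± 51.3 and 3065 ± 746 (SD, n = 3) with an adjusted p of 0.318, and XTH33 at 262 ± 29.5 and 196 ± 13.5 with an adjusted p of 0.136. Water and chitooctaose did not overlap for 2 of the 10 XTH genes higher, XTH18 and XTH19, and for 1 lower, XTH33. Over all probe sets these shares were 8.96% and 10.2%. The median over the 10 XTH genes was a log2 change of 0.08.

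**Figure D4:**
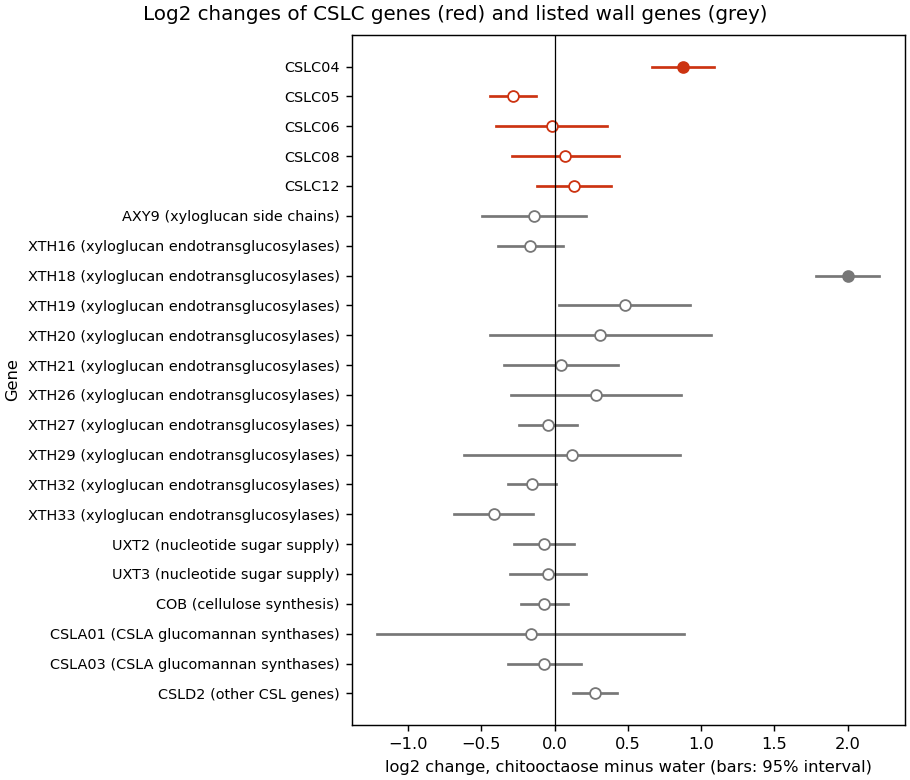
Log2 change, chitooctaose minus water, with its 95% interval from limma, for the 5 CSLC genes (red) and the 17 measured genes of the wall lists (grey, list in brackets); filled points had an adjusted p under 0.05. CSLC04 at 0.88 and XTH18 at 2.00 are the filled points, and the other 20 are open.

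Nucleotide sugar supply had 2 of 20 genes measured, UXT2 and UXT3, which encode Golgi transporters of the xylose donor. UXT3 averaged 585 ± 17.3 on water arrays and 571 ± 74.3 on chitooctaose arrays (SD, n = 3), and neither passed. COB, a membrane-anchored protein gene needed for oriented cellulose deposition and the measured gene of 13 in the cellulose list, stood at 2154 ± 146 and 2053 ± 96.0 (adjusted p 0.747 in limma). CSLA proteins, the nearest relatives of CSLC, make the glucomannan backbone, and 2 of 9 CSLA genes were measured. CSLA03 stood at 209 ± 17.5 and 199 ± 13.7, with a log2 change of -0.07 (95% interval -0.32 to 0.18), and CSLA01 had one of -0.16.

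Among 16 genes of the remaining cellulose-synthase-like families 1 was measured, CSLD2, which acts in the tip growth of root hairs. CSLD2 stood at 520, 551 and 538 in water and 607, 676 and 669 in chitooctaose. It was higher on every chitooctaose array, 1.21-fold, but missed the threshold (log2 change 0.28, SE 0.06, adjusted p 0.0707 in limma).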

How the data were processed

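Transcripts were measured on 6 Affymetrix arrays, 3 per treatment, from 7 µg of total RNA each, per the labels. What the authors deposited is a linear intensity for each probe set and array. For the probe summary, background correction and scaling, the method is not given in the sources used here. Of 22810 probe sets, 64 controls were left out. Genes were named by the platform annotation, with symbols brought up to date from RefSeq genes (TAIR10.1). As no genome build is stated for the array, no coordinates are given.

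Intensities under 16 were set to 16 and log2 was taken. limma 3.58.1 in R 4.3.3 (lmFit, eBayes with a mean-variance trend) compared chitooctaose with water, 2-sided, and was tested on simulated arrays. Exact permutation tests used scipy 1.17.1. Means ± SD are of intensities. SEs and intervals are limma's, and a fold is the log2 change turned back. The number of arrays limits the precision.

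Members and gene lists were chosen with earlier results of these data known. Named are every member, up to 4 called genes per list by size of change, or the gene with the highest mean where none was called, and 3 genes by likeness to CSLC04. AT3G28170, AT3G28155, AT3G28190, XTH19, XTH33, CSLA01, UXT2, LHCB4.2 and LHCB4.3 stand outside that rule, as do the flanking genes and the ratios between members, which were chosen after values were seen. Alternatives changed the floor, scaling, variance model, filter, replicate block and arrays used.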

Additional observations from a re-analysis of the deposited data

How the results depend on the processing

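CSLC04 kept its rise and its call under all 14 alternatives. With 1 array left out its log2 change lay between 0.81 and 0.95 (limma, adjusted p 0.0033 to 0.0225), and under the 8 others between 0.81 and 0.88 (0.000125 to 0.0333). CSLC05 stayed lower and uncalled under all 14, at -0.31 to -0.24 with 1 array left out (adjusted p 0.116 to 0.246) and -0.31 to -0.28 otherwise (0.0740 to 0.233). CSLC12 stayed higher and uncalled under all 13 that it entered, at 0.09 to 0.16 with 1 array left out. The other sign appeared for CSLC06 in 3 and for CSLC08 in 2 of the 6 versions without an array, in which they ran from -0.15 to 0.088 and from -0.022 to 0.18. In those versions AXY9 ran from -0.26 to -0.012, CSLA03 from -0.14 to -0.023 and COB from -0.11 to -0.015, none of them called. UXT3 ran from -0.11 to 0.067 and LHCB4.1 from -0.093 to 0.00024 there, the upper ends being without chitooctaose replicate 2. With 1 array left out, 721 to 835 probe sets were called higher and 86 to 176 lower, with fewer arrays in the model. Other scalings raised the number called lower, from 183 to 265 under quantile normalization and 260 under median centring.

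With the replicate number as a block, CSLC04 had an adjusted p of 0.0333 in limma and no CSLC gene lost or gained a call. Probe sets called lower numbered 93 in place of 183 and those called higher 754 in place of 964, and the cause was not tested. After removal of group means, arrays that share a number had correlations of 0.05, 0.03 and -0.10, and just 1 of the 6 was closest to the array of its own number, so the numbers are not taken to pair the arrays. No other probe set with exactly 1 CSLC gene existed in the annotation used, so that alternative was not run. With 3 arrays per group, changes as small as those of CSLC06, CSLC08 and CSLC12 have intervals that are wide beside their size and span both directions. The log2 interval of CSLC05, for this gene alone, was -0.44 to -0.13 and lay wholly on the lower side. Its adjusted p of 0.0790 in limma still missed the threshold.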
